A study of Homo sapiens with 8 samples.

Results

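The collagen genes were followed in the neuroblastoma line SK-N-SH, a human tumour cell line, with raised or lowered levels of the chromatin reader ZMYND8. Every row of the count table whose identifier maps to a protein-coding symbol made of COL, a number, A and a number was taken, which gave 44 of the 60659 genes. By the structures their products build, these are 11 fibrillar genes, 6 genes of the basement membrane network (type IV), 3 genes of hexagonal networks (types VIII and X) and 10 FACIT genes (fibril-associated collagens with interrupted helices). The others are 5 genes of the beaded filament (type VI), the anchoring fibril gene COL7A1, 4 transmembrane collagens, 2 multiplexins and 2 genes outside these classes. All 8 libraries, 2 per group, came from cells that received all-trans retinoic acid (ATRA) at 10 µM for 24 h. In the overexpression experiment, cells carried a doxycycline-inducible FLAG-ZMYND8 on the lentiviral vector pInducer20 and were selected with geneticin (ZMYND8 OE). They were compared with parental cells, and both groups received doxycycline (Dox). Since these controls are labelled parental, ZMYND8 cannot be told apart from the vector and the selection in this comparison. In the knockdown experiment, cells with ZMYND8 knocked down (ZMYND8 KD) were compared with their own KD control cells. The study's methods describe lentiviral short hairpin RNAs in pLKO.1. The sample titles name doxycycline only in the overexpression experiment. The parental and KD control groups therefore differ by the experiment, by the doxycycline named and by the vectors their cells carry.

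Collagens are extracellular matrix proteins whose alpha chains wind around each other into a helix inside the endoplasmic reticulum. Prolyl and lysyl residues are hydroxylated there, chaperones fold the helix, proteases trim the ends of fibrillar procollagens after secretion, and lysyl oxidases cross-link the fibrils. Type I collagen, of COL1A1 and COL1A2 chains, and type III, of COL3A1 chains, form the thick fibrils of connective tissue, with type V inside type I fibrils and FACIT collagens on their surface. Type IV forms the sheet of basement membranes, type VI forms beaded filaments around cells, and the transmembrane and multiplexin collagens act at the cell surface and near basement membranes. Neuroblastoma lines hold cells in an adrenergic and in a mesenchymal state, and the mesenchymal state is known for matrix genes.

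The libraries held 38316523 to 56256979 counts on genes. ZMYND8 (ENSG00000101040) had 3089 and 3612 counts in the parental libraries and 220691 and 182849 in ZMYND8 OE, a log2 fold change of 5.86 (standard error (SE) 0.060, adjusted p = 5.04e-12, edgeR). In the knockdown experiment, the controls had 3128 and 3374 ZMYND8 counts and the ZMYND8 KD libraries 1641 and 1640, a log2 fold change of -0.94 (SE 0.056, adjusted p = 2.20e-06, edgeR). All levels below are RPKM (reads per kilobase of summed exon length, scaled to the size of the library, with library sizes scaled by TMM over the 8 libraries). All tests are edgeR's two-sided quasi-likelihood test with Benjamini-Hochberg adjustment over all genes tested. A gene rose or fell at an adjusted p below 0.05, and it was called when its log2 fold change was also at least 1 in size and its mean normalized count above 20.

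The summed level of the 44 genes was 1130 and 1240 RPKM in the parental libraries and 379.5 and 404.1 RPKM in ZMYND8 OE. It was 470.6 and 462.2 RPKM in the KD control libraries and 628.9 and 601.6 RPKM in ZMYND8 KD. Thus the groups of each experiment did not overlap, and the direction was lower with overexpression and higher with knockdown. The collagen genes took 0.867% and 0.950% of all counts in the parental libraries, 0.338% and 0.361% in ZMYND8 OE, 0.384% and 0.381% in the KD control and 0.516% and 0.485% in ZMYND8 KD. COL1A1 alone made up 37.5 to 43.6% of the collagen counts of a library and COL3A1 17.6 to 30.6%, so the sums follow these genes. In whole-culture RNA, fewer cells of a type and less RNA per cell cannot be told apart.

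**Figure D1:**
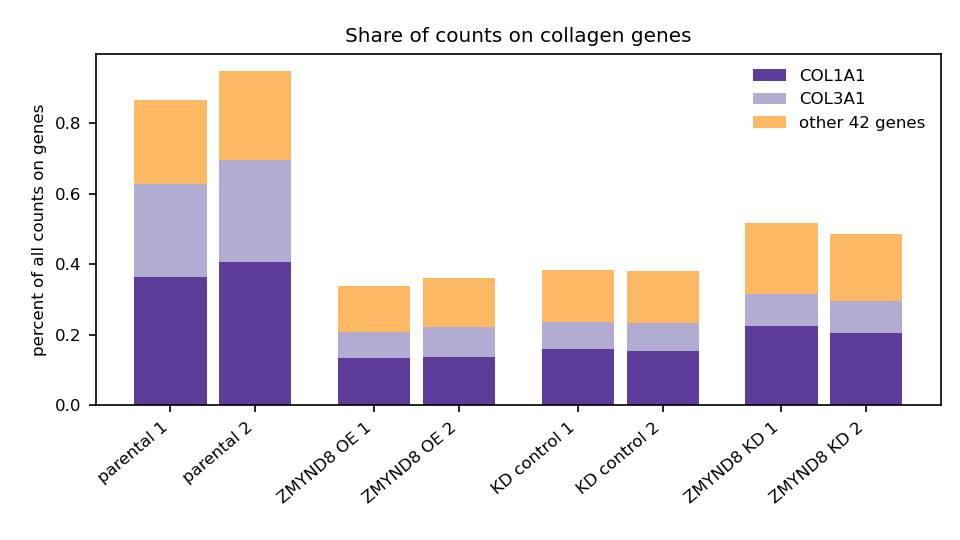
Percent of all counts on genes that fell on collagen genes, in each of the 8 libraries, as bars stacked from COL1A1, COL3A1 and the other 42 genes. The parental libraries reach 0.867% and 0.950%, and the ZMYND8 OE libraries 0.338% and 0.361%.

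The levels ran over several orders of magnitude within each group. In the parental cells the order was COL1A1 (449 RPKM on average), COL3A1 (431.6), COL18A1 (77.3), COL6A2 (64.6), COL6A1 (48.1), COL5A1 (33.6) and COL5A2 (33.2). The replicates of COL1A1 and COL3A1 overlapped there, as did those of COL5A1 and COL5A2, so neither pair has an order beyond its spread. COL1A1 and COL3A1 also led in the other 3 groups. In ZMYND8 OE, COL6A2, COL6A1, COL18A1 and COL5A1 came next, and COL26A1 was the seventh with 14.5 RPKM after standing at the 30th place in the parental cells. In the KD control, COL5A2 was the third with 55.1 RPKM. COL11A1 stood at the 19th place in the parental cells, at the tenth in the KD control and at the eighth in ZMYND8 KD. At the other end, COL6A5, COL11A2 and COL25A1 had 0 counts in every library outside ZMYND8 OE.

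**Figure D2:**
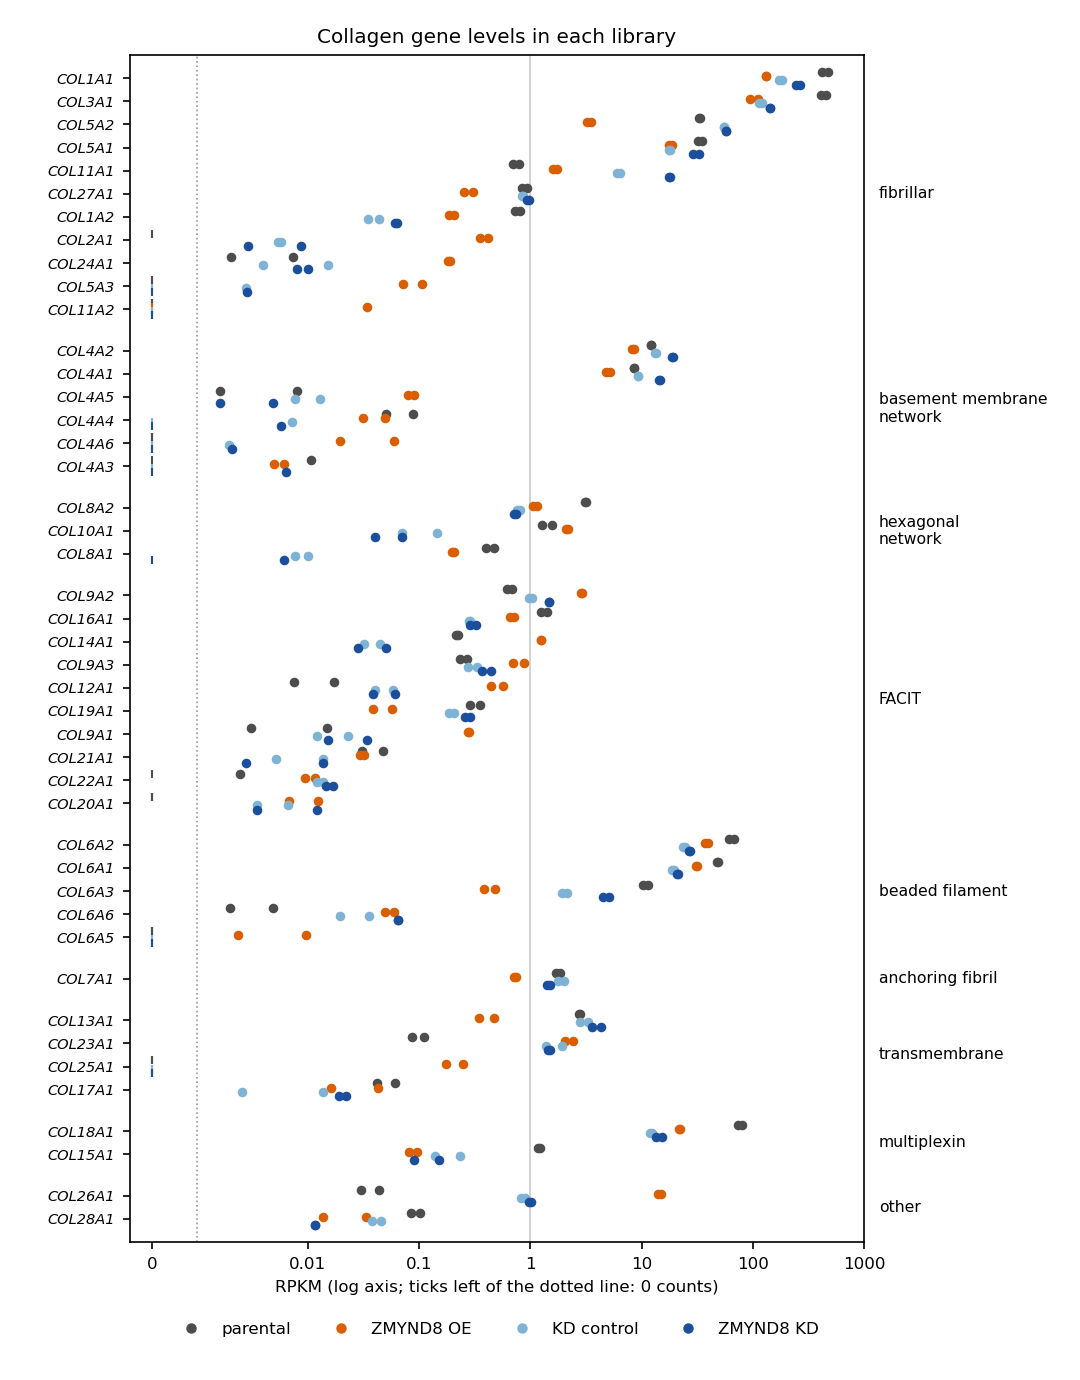
Level of each of the 44 collagen genes in RPKM on a log axis, by class, with 1 point per library coloured by group and ticks at the left edge for libraries with 0 counts. COL1A1 and COL3A1 lie at the right in all 8 libraries, and COL26A1 goes from 0.0304 and 0.0437 RPKM in the parental libraries to 14.1 and 14.95 RPKM in ZMYND8 OE.

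In the overexpression comparison 38 of the 44 collagen genes had enough counts to be tested, of which 15 rose, 20 fell and 3 did not pass the test. Over all 20835 genes tested, 31.7% rose and 29.1% fell. By the stricter call, 12 collagen genes were higher and 13 lower, against 11.8% higher and 6.84% lower of all genes tested. The median log2 fold change of the 38 was -0.73, and that of all genes 0.03. In the knockdown comparison 28 collagen genes were tested. Of these, 12 rose, 2 fell and 14 did not pass the test, where 13.4% of the 19789 genes tested rose and 10.8% fell. Called were 3 collagen genes, COL11A1, COL6A3 and COL6A6, all higher in ZMYND8 KD, against 1.36% of all genes higher and 0.596% lower. Their median was 0.22, and that of all genes -0.01.

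COL2A1, COL25A1, COL5A3, COL24A1, COL9A1, COL4A5, COL6A6, COL12A1 and COL26A1 had too few counts in the parental libraries to pass the filter and were tested only because they were high in ZMYND8 OE, as COL28A1 was tested in both comparisons only through its controls. Of the 17 collagen genes with a mean above 1 RPKM over the 8 libraries, 13 fell and 4 rose with overexpression (76.5% and 23.5%), against 38.8% and 27.0% of all genes tested above that level. The 4 that rose were COL26A1, COL11A1, COL9A2 and COL23A1. In the knockdown comparison 11 of the 17 rose and 1, COL7A1, fell, against 17.1% and 14.2% of all genes above 1 RPKM. These shares are a description with no test.

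**Figure D3:**
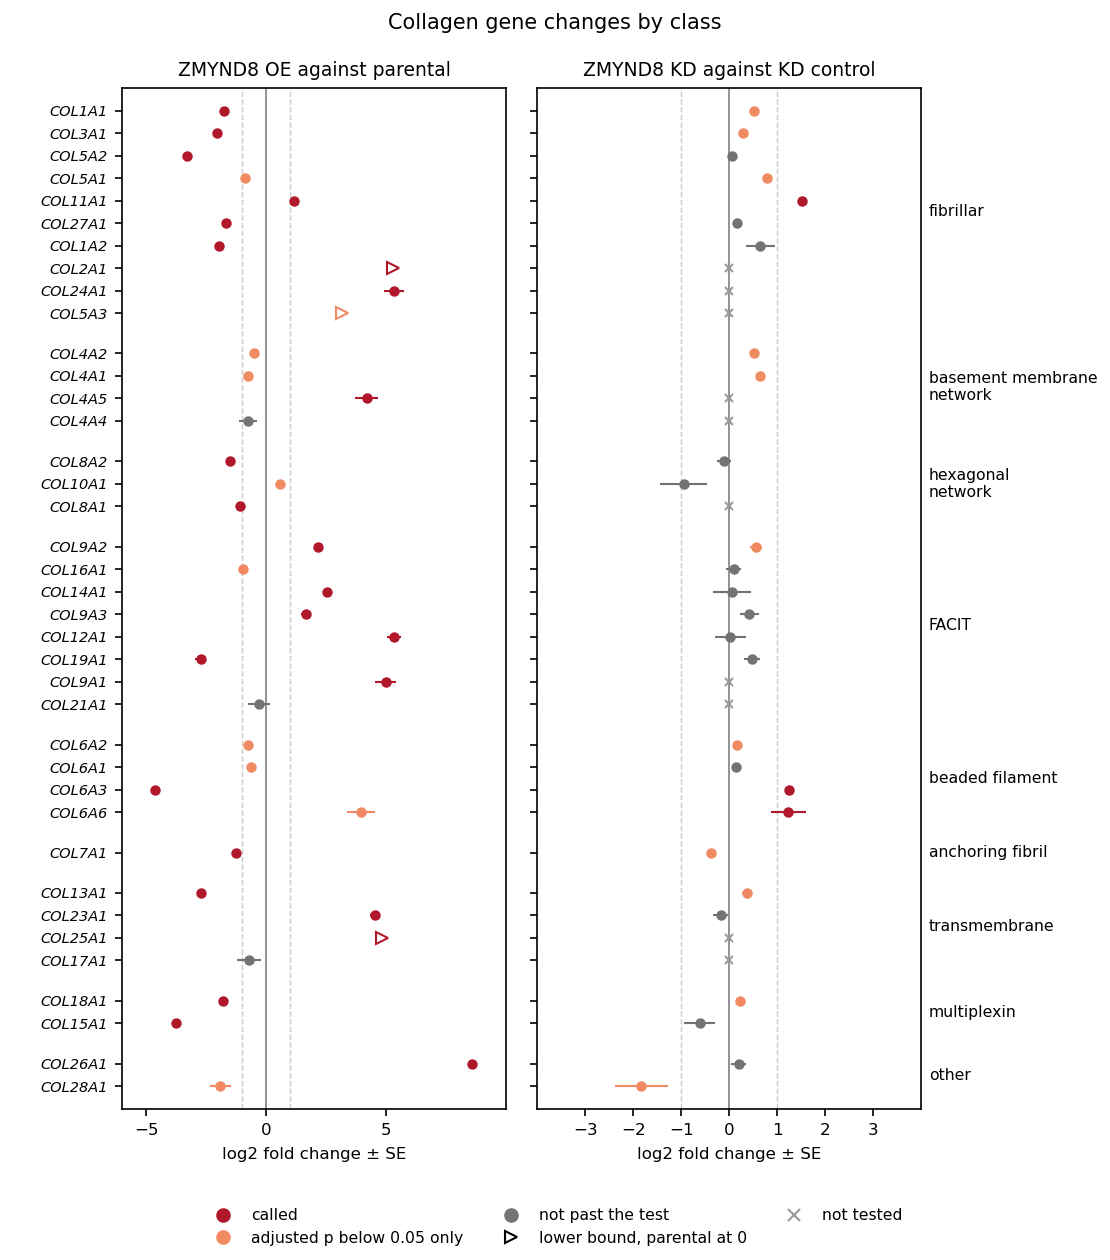
Log2 fold changes with their SE for the collagen genes tested in either comparison, by class, ZMYND8 OE against parental on the left and ZMYND8 KD against KD control on the right (axes differ). Colours give called genes, genes that passed the adjusted p only and genes that did not pass, open triangles are lower bounds for genes at 0 counts in the parental libraries, and dashed lines mark a log2 fold change of 1 in size. With overexpression COL26A1 is highest at 8.57 among genes with parental counts and COL6A3 lowest at -4.64, while with knockdown COL11A1 is highest at 1.51.

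Among the fibrillar genes, COL1A1, COL3A1, COL5A1, COL5A2, COL1A2 and COL27A1 fell with overexpression, and COL11A1, COL2A1, COL24A1 and COL5A3 rose. COL1A1 (ENSG00000108821, chromosome 17 of GRCh38 from 50184101 to 50201632), the main chain of type I collagen, had 423 and 475 RPKM in the parental libraries and 131.0 and 130.8 RPKM in ZMYND8 OE. Its levels were 183 and 172.5 RPKM in the KD control and 264 and 243 RPKM in ZMYND8 KD. Neither experiment's groups overlapped, and the log2 fold changes were -1.77 with overexpression (SE 0.063, adjusted p = 2.84e-09, edgeR) and 0.51 with knockdown (SE 0.062, adjusted p = 0.000221, edgeR).

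COL3A1 (ENSG00000168542, chromosome 2 from 188974373 to 189012746), the chain of type III collagen, had 412 and 451 RPKM in the parental libraries and 94.0 and 111.5 RPKM in ZMYND8 OE. In the knockdown experiment it had 115 and 121 RPKM in the controls and 142 and 144 RPKM in ZMYND8 KD. It fell by 2.06 on the log2 scale with overexpression and rose by 0.28 with knockdown (adjusted p = 6.10e-09 and 0.00361, edgeR). Directly beside it on chromosome 2 lies COL5A2 (189031898 to 189225312, opposite strand), a type V chain. The groups of the overexpression experiment lay furthest apart for this gene among the type V chains with parental counts. Its levels of 33.1 and 33.3 RPKM in the parental libraries and 3.25 and 3.485 RPKM in ZMYND8 OE gave a log2 fold change of -3.29 (SE 0.056, adjusted p = 3.11e-11, edgeR). Between KD control (55.0 and 55.2 RPKM) and ZMYND8 KD (57.7 and 56.9 RPKM) the log2 fold change of COL5A2 was 0.06 (adjusted p = 0.440, edgeR). COL5A1, its partner chain, had 32.0 and 35.1 RPKM in the parental libraries, 17.7 and 18.95 RPKM in ZMYND8 OE, 17.9 and 17.6 RPKM in the KD control and 32.6 and 29.0 RPKM in ZMYND8 KD. Both ZMYND8 OE libraries lay below the parental ones and both ZMYND8 KD libraries above their controls, with log2 fold changes of -0.86 and 0.80 (adjusted p = 4.99e-07 and 1.21e-05, edgeR), under the size of a call. The balance of these chains thus differed between the groups. The ratio of the COL5A2 to the COL5A1 level was 1.03 and 0.948 in the parental libraries, 0.184 in both ZMYND8 OE libraries, 3.07 and 3.13 in the KD control and 1.77 and 1.96 in ZMYND8 KD. The third type V chain, COL5A3, had 0 counts in the parental libraries and 26 and 32 in ZMYND8 OE, at least 9-fold higher, with a mean below the limit of a call.

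COL1A2, the partner of COL1A1 in type I collagen, was far below it in every library. It had 0.724 and 0.806 RPKM in the parental libraries, 0.1855 and 0.208 in ZMYND8 OE, 0.0440 and 0.0351 in the KD control and 0.0635 and 0.0603 in ZMYND8 KD. The COL1A1 level was 584 and 589 times the COL1A2 level in the parental libraries, 706 and 629 times in ZMYND8 OE, 4170 and 4920 times in the KD control and 4150 and 4030 times in ZMYND8 KD. COL1A2 fell with overexpression (log2 fold change -1.96, adjusted p = 6.77e-07, edgeR), and its log2 fold change with knockdown was 0.65 (adjusted p = 0.139, edgeR). COL27A1, known from cartilage, had 0.845 and 0.929 RPKM in the parental libraries and 0.304 and 0.253 RPKM in ZMYND8 OE. Its log2 fold changes were -1.66 (adjusted p = 9.52e-07, edgeR) with overexpression and 0.17 (adjusted p = 0.200, edgeR) with knockdown, from 0.840 and 0.857 RPKM to 0.935 and 0.966 RPKM.

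COL11A1 (ENSG00000060718, chromosome 1 from 102876467 to 103108872), which joins type V chains in thin fibrils and cartilage, rose in both comparisons. It had 0.789 and 0.704 RPKM in the parental libraries and 1.61 and 1.72 RPKM in ZMYND8 OE, a log2 fold change of 1.17 (SE 0.101, adjusted p = 2.92e-06, edgeR). The KD control libraries had 5.98 and 6.43 RPKM and the ZMYND8 KD libraries 17.5 and 17.9 RPKM, a log2 fold change of 1.51 (SE 0.054, adjusted p = 2.30e-07, edgeR). All 4 knockdown experiment libraries thus lay above all 4 of the overexpression experiment. The difference of the effects was -0.35 (adjusted p = 0.00770, edgeR). Without parental replicate 1 it was -0.28 and no longer passed the test (adjusted p = 0.0624). COL11A2, its partner chain, had 10 counts over all 8 libraries, and all its exonic 31-base sequences also occur on alternate contigs of the reference, so its counts are uncertain.

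The cartilage gene COL2A1 (ENSG00000139219, chromosome 12 from 47972967 to 48004554) had 0 counts in the parental libraries and 126 and 122 in ZMYND8 OE, at least 39-fold higher against 3 counts per library. The controls of the knockdown experiment had 2 and 2 counts of it and the ZMYND8 KD libraries 3 and 1, too few to test. COL24A1, a fibrillar gene known from developing bone, had 3 and 1 counts in the parental libraries and 94 and 80 in ZMYND8 OE, a ratio of 41.9 (exact 95% interval 16.1 to 155, for counting error only). It had at most 8 counts in any library of the knockdown experiment. In all, 6 of the 10 fibrillar genes tested fell and 4 rose with overexpression, against 29.1% and 31.7% of all genes tested. Of the 4, COL2A1, COL24A1 and COL5A3 passed the filter only through ZMYND8 OE, so they could enter this count only as rises. With knockdown 4 of 7 rose and the other 3 did not pass the test, where 13.4% of all genes tested rose and 10.8% fell.

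COL4A1 and COL4A2, the common chains of the basement membrane, start beside each other on chromosome 13 and are read in opposite directions. The stretch between the RefSeq starts (GRCh38.p14, chr13:110307158-110307283, plus strand) is shown because the chains moved together, with capitals for a CCAAT box and a GC box (GGGCGG). The part of this stretch in the changes was not tested.
COL4A1 to COL4A2: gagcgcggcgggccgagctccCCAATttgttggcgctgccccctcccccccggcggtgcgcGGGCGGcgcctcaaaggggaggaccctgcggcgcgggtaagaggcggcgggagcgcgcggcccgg
In the count table COL4A1 runs from 110148963 to 110307157 and COL4A2 from 110305812 to 110513209, so that the gene spans overlap by their starts. The exons used for counting share no bases between these genes.

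Both chains were lower in ZMYND8 OE and higher in ZMYND8 KD than in the controls of each. COL4A2 had 12.2 and 12.1 RPKM in the parental libraries, 8.15 and 8.63 RPKM in ZMYND8 OE, 13.4 and 13.2 RPKM in the KD control and 19.4 and 18.85 RPKM in ZMYND8 KD. COL4A1 had 8.47 and 8.585 RPKM in the parental libraries, 4.79 and 5.25 RPKM in ZMYND8 OE, 9.31 and 9.35 RPKM in the KD control and 14.5 and 14.8 RPKM in ZMYND8 KD. Neither gene's groups overlapped in either experiment. The log2 fold changes with overexpression were -0.52 for COL4A2 and -0.76 for COL4A1 (adjusted p = 5.46e-06 and 7.43e-07, edgeR), and with knockdown 0.53 and 0.65 (adjusted p = 4.43e-05 and 8.35e-06, edgeR). The ratio of the COL4A1 to the COL4A2 level stayed within 0.588 to 0.784 over the 8 libraries, lowest in ZMYND8 OE and highest in ZMYND8 KD.

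The other type IV chains, known from the kidney filter and the lung, were rare. COL4A5 on chromosome X had 4 and 1 counts in the parental libraries and 57 and 42 in ZMYND8 OE, a ratio of 19.1 (exact 95% interval 7.90 to 60.0), and it was called higher. Without either ZMYND8 OE library its mean count went below the limit of 20 for a call, while the rise still passed the test. COL4A6, which starts beside COL4A5 on the other strand, had 0 counts in the parental libraries and 30 and 8 in ZMYND8 OE, at least 5-fold higher, and was not tested in that comparison. COL4A4 had 38 and 26 counts in the parental libraries and 17 and 22 in ZMYND8 OE (log2 fold change -0.76, adjusted p = 0.111, edgeR). Without parental replicate 2 the log2 fold change of COL4A4 was -1.14 (adjusted p = 0.0261). Its neighbour COL4A3 had at most 5 counts in a library.

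Of the hexagonal network genes, COL8A2, a chain of type VIII collagen of vessels and the cornea, had 3.10 and 3.15 RPKM in the parental libraries and 1.05 and 1.16 RPKM in ZMYND8 OE. It fell with overexpression (log2 fold change -1.50, adjusted p = 4.70e-07, edgeR) and differed by -0.11 with knockdown (adjusted p = 0.635, edgeR), from 0.766 and 0.809 RPKM to 0.7155 and 0.744 RPKM. Its partner COL8A1 had 0.468 and 0.403 RPKM in the parental libraries and 0.198 and 0.205 RPKM in ZMYND8 OE, a log2 fold change of -1.10 (adjusted p = 0.000204, edgeR). COL8A1 had only 5 and 4 counts in the KD control and 0 and 3 in ZMYND8 KD, and was not tested there. COL10A1, known from cartilage that turns to bone, went from 1.28 and 1.565 RPKM to 2.09 and 2.18 RPKM with overexpression and rose by 0.59 on the log2 scale (adjusted p = 0.00236, edgeR).

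The FACIT genes were the class with the most called higher with overexpression, 5 of 8 tested, with 1 called lower. Of all genes tested, 11.8% were called higher and 6.84% lower. COL12A1 and COL9A1, among the 5, passed the filter only through ZMYND8 OE, so they could enter this count only as rises. COL12A1 (ENSG00000111799, chromosome 6 from 75084326 to 75206053), which coats type I fibrils, had 4 and 11 counts in the parental libraries and 385 and 243 in ZMYND8 OE. Its level went from 0.00754 and 0.0170 RPKM to 0.573 and 0.442 RPKM, a log2 fold change of 5.31 (SE 0.292, adjusted p = 8.04e-08, edgeR). It had 38 and 28 counts in the KD control and 40 and 25 in ZMYND8 KD (log2 fold change 0.02, adjusted p = 0.968, edgeR). Its groups stood apart with overexpression and overlapped with knockdown, and the same held for COL14A1, a relative that also sits on fibrils. COL14A1 had 0.217 and 0.222 RPKM in the parental libraries and 1.26 and 1.25 RPKM in ZMYND8 OE, with a log2 fold change of 2.52 (adjusted p = 2.01e-08, edgeR). In the knockdown experiment it had 17 and 25 counts in the controls and 15 and 27 with knockdown (log2 fold change 0.05, adjusted p = 0.946, edgeR).

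The 3 chains of type IX, which decorates type II fibrils of cartilage, were all called higher with overexpression. COL9A2 had 0.681 and 0.6195 RPKM in the parental libraries, 2.89 and 2.83 RPKM in ZMYND8 OE, 0.975 and 1.04 RPKM in the KD control and 1.476 and 1.475 RPKM in ZMYND8 KD. It rose in both comparisons, by 2.15 and 0.56 on the log2 scale (adjusted p = 7.31e-08 and 0.00830, edgeR), the latter not past the test without KD control replicate 1 (0.50, adjusted p = 0.0521). COL9A3 had 0.233 and 0.268 RPKM in the parental libraries and 0.871 and 0.699 RPKM in ZMYND8 OE, a log2 fold change of 1.65 (adjusted p = 3.53e-05, edgeR). With knockdown it went from 0.330 and 0.276 RPKM to 0.446 and 0.365 RPKM (log2 fold change 0.42, adjusted p = 0.156, edgeR). COL9A1 had 4 and 1 counts in the parental libraries and 93 and 77 in ZMYND8 OE, a ratio of 32.7 (exact 95% interval 13.8 to 102), and 4, 8, 5 and 11 counts in the knockdown experiment. The libraries of ZMYND8 OE lay above the parental ones for each of the 3 genes, which lie on chromosomes 6, 1 and 20.

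COL19A1, which lies beside COL9A1 on chromosome 6, went the other way with 0.350 and 0.290 RPKM in the parental libraries and 0.0388 and 0.0577 RPKM in ZMYND8 OE. Its log2 fold changes were -2.73 with overexpression (adjusted p = 3.47e-06, edgeR) and 0.48 with knockdown (adjusted p = 0.0591, edgeR), from 0.185 and 0.208 RPKM to 0.260 and 0.289 RPKM. COL16A1, the FACIT gene with the highest parental level, fell from 1.25 and 1.41 RPKM to 0.657 and 0.719 RPKM, a log2 fold change of -0.95 (adjusted p = 2.90e-05, edgeR). COL21A1 did not pass the test (-0.30, adjusted p = 0.594, edgeR). COL20A1 and COL22A1 had at most 7 counts in a library.

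In the beaded filament, the chains of type VI moved by very different amounts. COL6A3 (ENSG00000163359, chromosome 2 from 237324003 to 237414207), the longest of them, had 10.4 and 11.4 RPKM in the parental libraries and 0.479 and 0.386 RPKM in ZMYND8 OE. It had 2.14 and 1.915 RPKM in the KD control and 5.07 and 4.46 RPKM in ZMYND8 KD. The log2 fold changes were -4.64 with overexpression (SE 0.092, adjusted p = 7.13e-11, edgeR) and 1.24 with knockdown (SE 0.075, adjusted p = 2.43e-06, edgeR), and of the 44 genes COL6A3 alone was called in both comparisons with opposite directions.

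COL6A1 and COL6A2 are neighbours on chromosome 21 (45981769 to 46005050 and 46098112 to 46132848). COL6A1 had 47.4 and 48.8 RPKM in the parental libraries, 30.6 and 31.7 RPKM in ZMYND8 OE, 19.6 and 18.6 RPKM in the KD control and 21.2 and 20.8 RPKM in ZMYND8 KD. COL6A2, the beaded filament gene with the most counts, had 61.7 and 67.4 RPKM in the parental libraries, 37.1 and 39.4 RPKM in ZMYND8 OE, 24.8 and 23.4 RPKM in the KD control and 27.4 and 26.65 RPKM in ZMYND8 KD. Both fell with overexpression without being called, by 0.62 and 0.75 on the log2 scale (adjusted p = 1.33e-06 and 1.26e-06, edgeR). With knockdown COL6A2 rose by 0.17 (adjusted p = 0.0335, edgeR), a rise that did not pass the test without either KD control library or ZMYND8 KD replicate 1. Nor did the rise of COL6A2 pass without a filter on low counts (adjusted p = 0.091, edgeR). COL6A1 differed by 0.14 (adjusted p = 0.0698, edgeR). The level of COL6A2 was 1.21 to 1.38 times that of COL6A1 in all 8 libraries. The ratio of the COL6A3 to the COL6A1 level was 0.219 and 0.233 in the parental libraries, 0.0157 and 0.0122 in ZMYND8 OE, 0.109 and 0.103 in the KD control and 0.239 and 0.214 in ZMYND8 KD. A type VI monomer holds one of each chain.

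The 100 bases before the RefSeq start of COL6A2 (chr21:46098012-46098111, plus strand) and of COL6A3 (chr2:237414165-237414264, minus strand) are shown because their genes serve the same filament and differed in size of change. Capitals mark GC boxes (GGGCGG on either strand).
COL6A2: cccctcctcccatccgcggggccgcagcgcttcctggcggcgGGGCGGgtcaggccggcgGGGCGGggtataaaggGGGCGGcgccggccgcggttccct
COL6A3: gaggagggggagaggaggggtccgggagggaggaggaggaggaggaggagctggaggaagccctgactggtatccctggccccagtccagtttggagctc
COL6A2 has 3 GC boxes and a TATAAA box in this stretch, with 81.0% G and C. COL6A3 has neither, with 67.0% G and C. Whether these letters bear on the size of the changes was not tested.

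COL6A6, a chain related to COL6A3, had 2 and 1 counts in the parental libraries, 31 and 21 in ZMYND8 OE, 10 and 19 in the KD control and 33 and 33 in ZMYND8 KD. The ratio with overexpression was 16.7 (exact 95% interval 5.40 to 83.5), and the log2 fold change with knockdown 1.23 (SE 0.361, adjusted p = 0.0311, edgeR). The call with knockdown was lost without KD control replicate 1 (0.87, adjusted p = 0.197), without a filter on low counts (1.24, adjusted p = 0.0789) and with DESeq2. COL6A5 had 5 and 1 counts in ZMYND8 OE and none elsewhere.

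**Figure D4:**
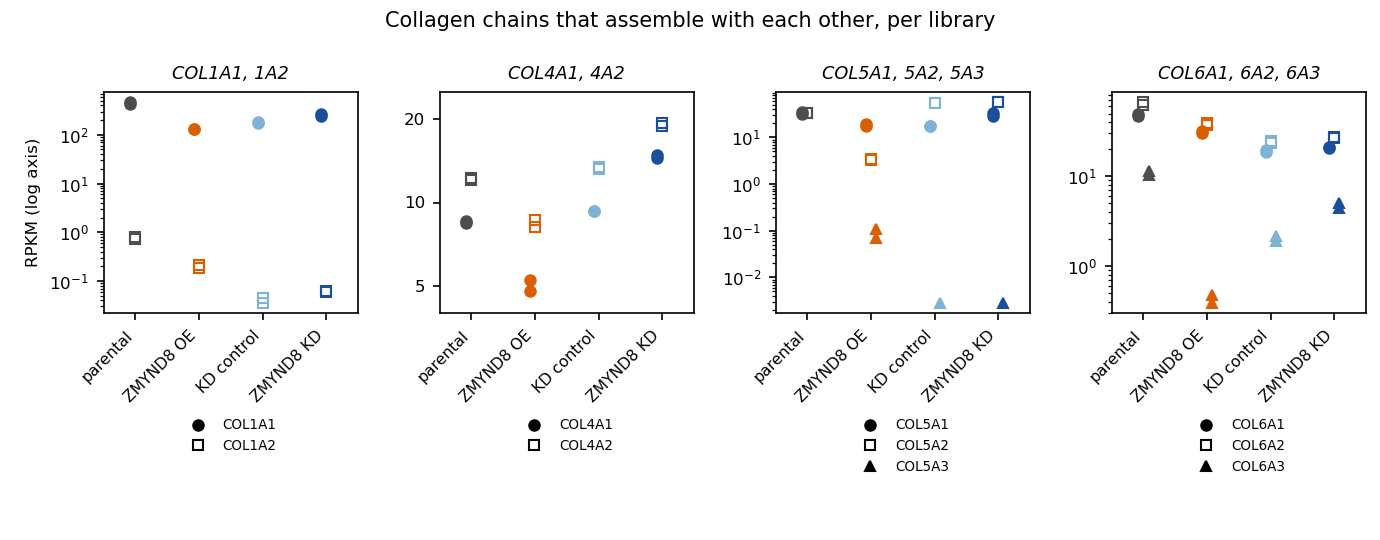
Levels in RPKM on log axes (scales differ between panels) of chains that assemble with each other, 1 symbol per library, for types I, IV, V and VI; libraries with 0 counts of COL5A3 are left out. COL6A3 drops away from COL6A1 and COL6A2 in ZMYND8 OE, with a ratio to COL6A1 of 0.0157 and 0.0122, while COL4A1 and COL4A2 keep a ratio of 0.588 to 0.784.

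COL7A1, the anchoring fibril gene that ties basement membrane to the tissue below, fell in both comparisons. It had 1.70 and 1.85 RPKM in the parental libraries and 0.713 and 0.749 RPKM in ZMYND8 OE, a log2 fold change of -1.27 (SE 0.090, adjusted p = 6.09e-07, edgeR). It had 2.015 and 1.77 RPKM in the KD control and 1.51 and 1.41 RPKM in ZMYND8 KD, a log2 fold change of -0.37 (SE 0.087, adjusted p = 0.0110, edgeR). The fall with knockdown did not pass the test without KD control replicate 1 (-0.28, adjusted p = 0.0963) or without a filter on low counts (-0.37, adjusted p = 0.0605).

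Of the transmembrane collagens, 2 rose and 1 fell with overexpression, where 31.7% of all genes tested rose and 29.1% fell. COL25A1, among those that rose, passed the filter only through ZMYND8 OE. COL13A1, found at cell contacts and the neuromuscular junction, had 2.80 and 2.74 RPKM in the parental libraries and 0.474 and 0.345 RPKM in ZMYND8 OE, a log2 fold change of -2.73 (adjusted p = 1.75e-08, edgeR). It went from 3.27 and 2.80 RPKM in the KD control to 4.285 and 3.55 RPKM in ZMYND8 KD, a log2 fold change of 0.37 (adjusted p = 0.0190, edgeR). This rise did not pass without KD control replicate 2, without ZMYND8 KD replicate 1 or without a filter on low counts (adjusted p = 0.115 for the last, edgeR). COL23A1 had 0.111 and 0.0859 RPKM in the parental libraries and 2.07 and 2.445 RPKM in ZMYND8 OE, a log2 fold change of 4.53 (SE 0.202, adjusted p = 1.55e-08, edgeR). In the knockdown experiment it stood at 1.37 and 1.945 RPKM in the controls and 1.49 and 1.43 RPKM with knockdown (log2 fold change -0.18, adjusted p = 0.478, edgeR), so that these 4 libraries lay near the ZMYND8 OE level and not near the parental one. COL25A1 (ENSG00000188517, chromosome 4 from 108808725 to 109302752), made by neurons, had 83 and 96 counts in ZMYND8 OE and 0 in the other 6 libraries, at least 28-fold higher than in the parental cells. COL17A1 did not pass the test (-0.71, adjusted p = 0.244, edgeR).

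The multiplexins, which carry sugar chains and lie at basement membranes (COL18A1 is the source of endostatin), were both called lower with overexpression. COL18A1 (ENSG00000182871, chromosome 21 from 45405165 to 45513720) had 73.7 and 80.8 RPKM in the parental libraries, 21.8 and 22.2 RPKM in ZMYND8 OE, 12.5 and 11.9 RPKM in the KD control and 15.2 and 13.4 RPKM in ZMYND8 KD. The log2 fold changes were -1.80 (SE 0.058, adjusted p = 1.51e-09, edgeR) and 0.24 (SE 0.065, adjusted p = 0.0233, edgeR). The rise with knockdown was under the size of a call and did not pass the test without either KD control library or ZMYND8 KD replicate 1 (0.14 to 0.26, adjusted p = 0.0527 to 0.177) or without a filter on low counts (adjusted p = 0.109). In addition, 18.5% of the exon bases of COL18A1 lie opposite SLC19A1, whose reads cannot be told apart if strand was not used in counting. COL15A1 had 1.18 and 1.23 RPKM in the parental libraries and 0.0949 and 0.0819 RPKM in ZMYND8 OE, a log2 fold change of -3.75 (adjusted p = 1.70e-08, edgeR). With knockdown its 82 and 51 counts became 53 and 31 (-0.62, adjusted p = 0.198, edgeR). Without ZMYND8 KD replicate 1 the log2 fold change was -1.06 (adjusted p = 0.00733).

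COL26A1 (ENSG00000160963, chromosome 7 from 101362875 to 101559024), known from the testis and ovary, had 4 and 7 counts in the parental libraries and 2348 and 2041 in ZMYND8 OE. Its level went from 0.0304 and 0.0437 RPKM to 14.1 and 14.95 RPKM, a log2 fold change of 8.57 (SE 0.145, adjusted p = 3.11e-11, edgeR). The KD control libraries had 0.902 and 0.833 RPKM and the ZMYND8 KD libraries 1.01 and 0.972 RPKM (log2 fold change 0.19, adjusted p = 0.409, edgeR), between the parental and the ZMYND8 OE levels. The 100 bases before its RefSeq start (chr7:101362775-101362874, plus strand), shown as the promoter next to the steepest rise fitted among collagen genes with counts in the parental cells, hold no GC box and no CCAAT box, and so no capitals. The part of these bases in the rise was not tested.
COL26A1: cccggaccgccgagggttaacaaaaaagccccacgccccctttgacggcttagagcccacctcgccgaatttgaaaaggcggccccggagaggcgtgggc
COL28A1, the other gene outside the classes, had 29 and 29 counts in the parental libraries, 12 and 4 in ZMYND8 OE, 16 and 14 in the KD control and 4 and 4 in ZMYND8 KD. It fell in both comparisons (log2 fold changes -1.90 and -1.83, adjusted p = 0.00328 and 0.0371, edgeR) with means too low for a call, and the fall with knockdown did not pass the test when any library was left out.

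The promoter windows of RefSeq (GRCh38.p14, 250 bases before to 50 after each start) held 44 windows of 32 collagen genes. A GC box (GGGCGG) stood in 54.5% of the collagen windows and 44.9% of all 34943 windows, a CCAAT box in 31.8% and 34.6%, and TATAAA in 18.2% and 11.6%. The hexamer AGGTCA, which nuclear receptors such as those for retinoic acid can bind in pairs, stood in 1 collagen window (2.27%) and in 13.8% of all windows. Both strands were searched, and motifs that overlap were all counted. These are letters in a window, not sites, and no test was made.

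The effects of overexpression and knockdown were then compared with each other. Vector and selection cannot be told apart from ZMYND8 in the overexpression effect, and so not in the difference either. Of the 39 collagen genes tested for a difference of the effects, 31 passed, 12 with a more positive effect of overexpression and 19 with a more negative one, against 24.6% and 24.4% of the 22619 genes tested. COL2A1, COL24A1, COL9A1 and COL4A5, among the 12, passed the filter only through ZMYND8 OE, so they could enter this count only as more positive. The difference was -5.88 for COL6A3 (adjusted p = 1.68e-13), -3.36 for COL5A2 (adjusted p = 1.66e-13), -2.29 for COL1A1 (adjusted p = 4.24e-11) and -1.41 for COL4A1 (adjusted p = 7.04e-10, all edgeR). At the other end it was 8.37 for COL26A1 (adjusted p = 6.98e-13) and 5.28 for COL12A1 (adjusted p = 3.20e-07, edgeR). Of the 14 genes that passed the test in both comparisons, 9 fell with overexpression and rose with knockdown, and 5 moved the same way (COL11A1, COL9A2 and COL6A6 higher, COL7A1 and COL28A1 lower). Among the 5, COL6A6 passed the overexpression filter only through ZMYND8 OE, and COL28A1 passed both filters only through its controls. The same split over all genes is not given, so these counts are a description. The 9 were COL1A1, COL3A1, COL5A1, COL4A1, COL4A2, COL6A2, COL6A3, COL13A1 and COL18A1. Without a filter on low counts, the knockdown rises of COL6A2, COL13A1 and COL18A1 did not pass the test. The same held for the knockdown changes of COL6A6, COL7A1 and COL28A1 (adjusted p = 0.0605 to 0.115 for these genes, edgeR).

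Most genes that help make collagen fell with overexpression, as most abundant chains did. Of 35 genes for prolyl and lysyl modification, folding and export, propeptide cleavage and cross-linking, all tested, 30 fell and 4 rose with overexpression (median log2 fold change -0.70), and 17 rose and 1 fell with knockdown (median 0.26). Of all genes tested, 29.1% fell and 31.7% rose with overexpression, and 13.4% rose and 10.8% fell with knockdown. Of the 15 modification genes 14 fell with overexpression. COLGALT2, which adds galactose to hydroxylysine, fell by 2.09, the prolyl hydroxylase subunit P4HA3 fell by 2.03 and P4HA2 fell by 1.36 on the log2 scale. PLOD2, a lysyl hydroxylase for cross-link sites, went from 48 and 77 counts to 214 and 145 and rose by 1.47. All 7 folding and export genes fell. The collagen chaperone SERPINH1 (HSP47) fell by 0.73 with overexpression (adjusted p = 2.99e-07, edgeR) and differed by 0.11 with knockdown (adjusted p = 0.138, edgeR). CREB3L1, a transcription factor of secretory cells, fell by 1.59 with overexpression and rose by 0.50 with knockdown.

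Among the 8 propeptide cleavage genes 5 fell and 3 rose with overexpression. ADAMTS2, the main N-propeptidase of type I procollagen, had 91 and 123 counts in the parental libraries and 2353 and 2015 in ZMYND8 OE, a log2 fold change of 4.31 (SE 0.089, adjusted p = 8.23e-11, edgeR). TLL2 rose by 2.03 and TLL1, another protease of the BMP1 family, fell by 1.87. BMP1 itself, the C-propeptidase, fell by 0.71 with overexpression and rose by 0.35 with knockdown (adjusted p = 1.01e-06 and 0.0104, edgeR).

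Of the 5 lysyl oxidases that cross-link fibrils, 4 fell with overexpression and all 5 rose with knockdown. LOX had 7.65 RPKM on average in the parental libraries, 2.68 in ZMYND8 OE, 2.70 in the KD control and 6.24 in ZMYND8 KD. It was called in both comparisons, with log2 fold changes of -1.50 (SE 0.080, adjusted p = 5.99e-08, edgeR) and 1.21 (SE 0.074, adjusted p = 2.46e-06, edgeR). LOXL1 and LOXL2 were called lower with overexpression (-2.98 and -2.25) and rose by 0.56 and 0.42 with knockdown.

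The receptors for collagen went along in the overexpression comparison, where all 7 tested of 8 fell, 6 of them called. Of all genes tested, 29.1% fell and 6.84% were called lower with overexpression, and 13.4% rose and 10.8% fell with knockdown. The integrin subunit ITGA2 fell by 3.61, ITGA10 fell by 3.295 and ITGA11 fell by 2.76 on the log2 scale, and the receptor kinase DDR2 fell by 0.97. DDR1 had at most 2 counts in a library. With knockdown 1 of the 7 rose, DDR2 by 0.31, and 2 fell, ITGA1 and ITGA10 (-0.67 and -1.24). All 5 tested proteoglycans that bind collagen fibrils were called lower with overexpression. ASPN fell by 4.03, LUM fell by 2.63 and BGN fell by 1.82. With knockdown 2 of 4 rose, DCN by 1.23 and BGN by 0.49, and LUM fell by 0.27.

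**Figure D5:**
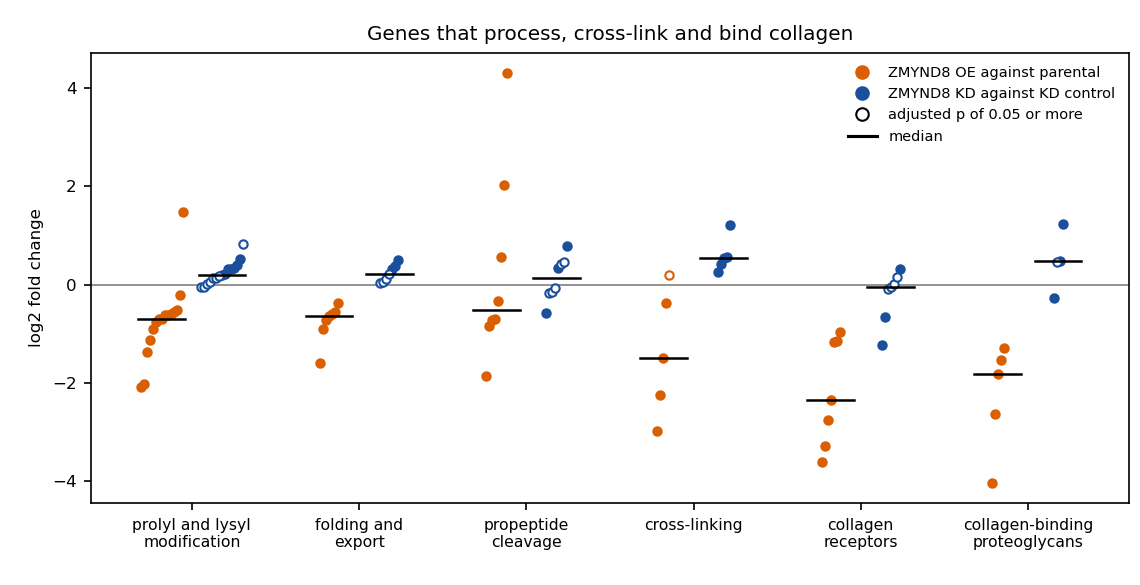
Log2 fold changes of the tested genes that modify, fold, cleave, cross-link and bind collagen, by list, for ZMYND8 OE against parental (orange) and ZMYND8 KD against KD control (blue), with open points for an adjusted p of 0.05 or more and bars at the medians. The medians with overexpression lie below 0 in every list, and ADAMTS2 stands apart at 4.31.

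Markers of cell state also changed in both comparisons. Of 11 adrenergic neuroblastoma markers, 10 were tested and all 10 rose with overexpression, 7 of them called, while with knockdown 6 of 9 tested fell. Their summed level was 127 to 128 RPKM in the parental libraries, 385 to 402 RPKM in ZMYND8 OE, 269.5 to 283 RPKM in the KD control and 211 to 235 RPKM in ZMYND8 KD. Among the called genes, HAND1 rose by 4.51 on the log2 scale. TH, of the same list, had at most 5 counts in a library. Of 12 mesenchymal markers, 11 fell and 1 (TWIST1, 1.31) rose with overexpression, 7 and 1 of them called. With knockdown 6 rose and 2 fell, PRRX1 (-0.98) and SNAI2 (-0.41), which had also fallen with overexpression. Their summed level was 899 to 904 RPKM in the parental libraries, 445 to 482 RPKM in ZMYND8 OE, 568 to 580 RPKM in the KD control and 671 to 691 RPKM in ZMYND8 KD. The largest falls called with overexpression were those of CD44 (-2.55), PRRX1 (-2.39) and FOSL1 (-1.75). The part of these states in the collagen changes was not tested.

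Markers of other cell types had summed levels of at most 2.41 RPKM per list in all 8 libraries. The summed level was 0.190 to 0.565 RPKM for 5 endothelial markers, 0.239 to 0.5495 RPKM for 4 macrophage markers and 0.660 to 2.41 RPKM for 5 Schwann cell markers, with the highest Schwann cell sums in ZMYND8 OE. The defining genes CDH5, PTPRC and SOX10 had at most 2 counts in a library. With overexpression KDR was called higher and PECAM1 and VWF lower, S100B and ERBB3 higher, and CSF1R lower. KDR and S100B passed the filter only through ZMYND8 OE, and PECAM1, VWF and CSF1R only through the parental libraries. Apart from ERBB3, the filter thus set the direction in which these genes could be called with overexpression. With knockdown PECAM1 was called lower and CSF1R higher. Their part in the collagen changes was not tested.

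The levels of collagen genes also differed between the control cells of both experiments. Of 28 collagen genes with more than 3 counts in all 4 control libraries, 11 differed more between KD control and parental cells than between ZMYND8 OE and parental cells. COL11A1 was 3.06 log2 units higher in the KD control than in the parental cells, COL23A1 4.08 and COL26A1 4.55, whereas COL18A1 was lower (-2.66), as were COL6A3 (-2.42), COL1A2 (-4.28) and COL8A1 (-5.61). These are differences of mean levels with no test, and the control type, the vector, doxycycline and the experiment cannot be told apart in them. Each comparison above used its own controls.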

How the data were processed

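Total RNA, freed of ribosomal RNA, was sequenced in paired ends from 8 SK-N-SH cultures. Per the study's methods, the authors removed adapters and reads with a Phred score under 25 with Trim Galore, mapped what remained with HISAT2 to GRCh38, and counted reads per gene with featureCounts. The methods name GENCODE release 28, but whether the table was made with that release was not settled here. They deposited the counts without normalization. The table lists 60662 lines, of which 3 lines that belong to 1 split gene were left out. Versions and the strand setting of counting are not given in the sources used here. Symbols were taken from GENCODE release 44, where 60418 of the 60659 identifiers were found, and coordinates are those of the count table.

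Groups came from the sample labels, which name separate biological replicates. The titles of the KD control libraries differ by a numeral (I and II), and they were taken as replicates because their treatment label is the same. For each comparison, genes were kept with filterByExpr, library sizes were scaled with TMM and all genes were tested with edgeR 4.0.16 (limma 3.58.1, R 4.3.3). Replicates differed by more than counting noise (chi-square per degree of freedom 5.52 to 7.97), and the biological coefficient of variation was 0.0565 with overexpression and 0.0613 with knockdown. Folds against a group at 0 counts are lower bounds computed with 3 counts in each library of that group. Intervals and bounds cover counting error only. The difference of effects was a contrast over all 8 libraries. The fits were tested on simulated data.

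Tried as alternatives were RLE or upper quartile normalization, DESeq2 1.42.0, no filter on low counts, a mean above 100, 1 fit over all 8 libraries, the replicate number as a block, corrections for gene length and for length with GC content (loess, span 0.5), and leaving out each library. Values in every library are given for members called in either comparison and for the member of each class with the most counts, the chains of 1 trimer stand side by side, and of other lists up to 3 called genes in each direction are named, beside SERPINH1, LOX, DDR1, DDR2, BMP1 and P4HA2. Other genes were named after their values were seen. Some genes that this rule would name are not reported here. The members and lists were chosen with earlier results of these data known.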

Additional observations from a re-analysis of the deposited data

Results flagged for a closer look

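The effects of ZMYND8 overexpression and knockdown differed for 31 of the 39 collagen genes tested, by the test of the difference over all 8 libraries, with 12 higher and 19 lower. Of all 22619 genes tested, 24.6% were higher and 24.4% lower. Among the 12, COL2A1, COL24A1, COL9A1 and COL4A5 passed the filter only through ZMYND8 OE and could enter only as higher. The count was 30 to 32 when each library was left out. COL11A1 rose in both comparisons, and its effects differed by -0.35 (adjusted p = 0.00770, edgeR), with the larger rise under knockdown. Without parental replicate 1 the difference of COL11A1 was -0.28 (adjusted p = 0.0624).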

How the results depend on the processing

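The 25 collagen genes called with overexpression were 19 at a mean normalized count above 100 and 25 to 28 under the other alternatives, and the 3 called with knockdown were 2 to 4. The 31 whose effects differed were 30 to 32. COL6A3 and COL11A1 were called with knockdown under every alternative, whereas COL6A6 was lost with DESeq2, without a filter on low counts and without KD control replicate 1. With gene length and GC content taken out, COL8A1 lost its call with overexpression (the median of all genes was kept in place), and COL5A1, COL6A1, COL6A2 and COL16A1 were called lower. Without a filter on low counts, 8 of 41 tested collagen genes rose with knockdown, against 12 of 28.

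With the replicate number as a block (replicate block), 25 genes were called with overexpression and 3 with knockdown, and the effects of 31 differed. In that fit COL6A1 (0.14, adjusted p = 0.0154) and COL19A1 (0.48, adjusted p = 0.0324) rose with knockdown. The replicate numbers did not pair the libraries, with correlations of deviations of 0.0097 and -0.0111.

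Over 1360 alternative values of single genes, 1300 kept their direction and side of the threshold, 27 no longer passed the test, 14 came to pass it and 19 changed sign. None of those 19 passed the test. With knockdown, the log2 fold change of COL12A1 was -0.02 with gene length or with length and GC content taken out and -0.03 with the block as well. Leaving out each library, it was -0.35 to 0.33 for COL12A1, -0.43 to 0.41 for COL14A1 and -0.42 to 0.10 for COL23A1. It was -0.61 to 0 for COL21A1 with overexpression. The difference of effects was -0.96 to 1.31 for COL21A1, -0.91 to 0.37 for COL28A1, -4.42 to 3.21 for COL4A4 and -0.60 to 4 for COL8A1, genes with few counts in the knockdown experiment. With 2 libraries per group, leaving out 1 leaves a single library that is assumed to vary like the others. Strand use in counting limits COL18A1.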
